A study of Mus musculus with 53 samples.

Results

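The axonal immunoglobulin adhesion molecules were described here as 10 genes in the cortex of untreated C57bl/6 mouse embryos at E16.5. They were chosen by name and family: the NCAM genes Ncam1 and Ncam2, the L1 family genes L1cam, Chl1, Nrcam and Nfasc, the contactin genes Cntn1 and Cntn2, and the contactin-associated genes Cntnap1 and Cntnap2. All 10 were found among the 37991 gene IDs listed, and none was listed at 0. The series holds 53 RNA sequencing libraries in 19 groups of cultured cortical neurons, cultured astrocytes, adult hippocampus and embryonic cortex, made to ask how histone turnover bears on neuronal mRNA levels. The cortex group is 3 libraries of whole tissue with no stimulation and no construct, and the authors averaged them into 1 RPKM value for each gene, that is, reads per kilobase scaled to the depth of the library. The sources used here do not say whether each library was 1 embryo or a pool. The other 50 libraries are not analysed here. With a single mean there is no comparison between groups, no SD and no test. In bulk tissue, fewer cells of a type and less RNA per cell cannot be told apart.

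These proteins sit on axons and growth cones and hold axons to each other and to glia. NCAM proteins bind their own kind on neighbouring cells and carry polysialic acid, a sugar chain that loosens adhesion. L1 family proteins cross the membrane and grip the spectrin skeleton through ankyrins, while contactins are tied to the membrane by a lipid anchor and act with partners such as the contactin-associated proteins. In the embryonic cortex they are known for axon growth, bundling and migration. In mature myelinated axons several of them build the node of Ranvier and the regions on either side of it.

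A short stretch in the cytoplasmic tail is what sets the L1 family apart, and its coding bases are shown because they mark these 4 genes among the 10. It is the ankyrin-binding motif: phenylalanine, isoleucine, glycine, then glutamine or alanine, then tyrosine. The longest coding sequence of each gene in GENCODE M21 was searched in frame, on the coding strand. The bases are given 5′ to 3′ with the motif's codons in capitals:
L1cam: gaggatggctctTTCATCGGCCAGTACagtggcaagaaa
Chl1: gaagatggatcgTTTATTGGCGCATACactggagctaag
Nrcam: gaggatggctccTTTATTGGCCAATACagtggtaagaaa
Nfasc: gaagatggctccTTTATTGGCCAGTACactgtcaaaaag
All 4 L1 family genes held it and the other 6 members did not. These 4 are among the 11 of 21877 genes with a coding transcript in GENCODE (0.0503%) that held it. The motif searched for is the one known from the L1 family, so its presence in these 4 was given in advance and is no result. Between the motif and the stop codon lay 28 codons in L1cam, Nrcam and Nfasc and 23 in Chl1. A match in letters is a description and shows no binding. The level of each gene sums over its isoforms, with or without this stretch.

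Gene length decides how these genes read in the deposited values. The authors' RPKM fit a division by the whole gene from first to last base, introns included. Of 782 low values of multi-exon genes, 662 (84.7%) fell within 0.5% of the worth of 1 read in 1 library by that length. By exon length 35 of 1205 (2.90%) did so. The worth of 1 read was itself found from values times span, and not anew for exon length. These shares are thus not a like test of both lengths. The members are long genes. Their median span was 256 kb, against 18.7 kb for all protein-coding genes, and all 10 lay above that median, from Cntnap1 at 20.2 kb to Cntnap2 at 2245 kb. Summed exons, from 5.88 kb in Cntnap1 to 14.1 kb in Nfasc, differed by 2.41-fold at most. Each level is therefore given as deposited and again per kilobase of summed exon, with reads estimated from span and the 3 library depths of 51.3, 64.8 and 71.6 M reads. The exon scale takes all counted reads to lie in exons. The share of intronic reads, if any were counted, was not tested.

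At a level of 1 RPKM or more stood 5 of the 10 genes as deposited, beside 18.8% of all gene IDs and 31.6% of protein-coding genes. Per kilobase of exon 9 of 10 did so, beside 35.5% of all genes with a length and 54.1% of protein-coding genes. The members' median level was 1.03 RPKM as deposited, against 0.214 RPKM over protein-coding genes. On the exon scale it was 18.5 RPKM against 1.57 RPKM. Among protein-coding genes ordered by exon-scale level, Cntn2, L1cam, Ncam1, Chl1 and Nfasc lay in the top 10%. By deposited level only Cntn2 and L1cam did. Together the 10 genes took 0.335% of the reads estimated over all genes with a length, and the L1 family held 51.5% of the members' reads, the contactins 32.5%, the NCAM genes 14.6% and the contactin-associated genes 1.36%.

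**Figure D1:**
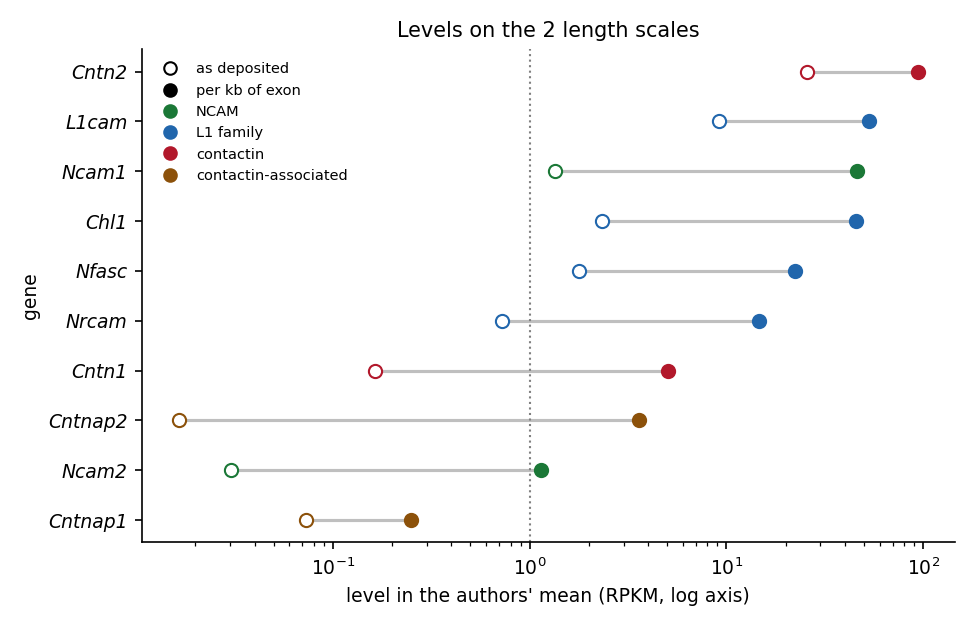
Level of each member in the authors' mean of 3 libraries, on a log axis in RPKM, as deposited (open circles) and per kilobase of exon (filled circles), with the dotted line at 1 RPKM and colours for the families. Cntn2 was highest on both scales, Cntnap2 moved furthest, from 0.0165 to 3.61 RPKM, and Cntnap1 alone stayed below 1 RPKM on both.

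Cntn2 was the most abundant of these transcripts. It encodes TAG-1, a contactin known from the early axons that leave the cortex and, later, from the region beside the paranode. Cntn2 (ENSMUSG00000053024, chromosome 1) stood at 25.8 RPKM as deposited and at 93.8 RPKM per kilobase of exon, with an estimated 163866 reads. Its 95% counting interval on the exon scale was 93.4 to 94.3 RPKM. Among protein-coding genes Cntn2 ranked 325 by deposited level and 237 by exon-scale level, of 20214. It is a compact gene of 33.8 kb, so its value loses less than most members' by the use of whole-gene length.

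Cntn1, its paralog, was far lower. The product, contactin-1, is known as the partner of Caspr in the septate-like junctions next to the node. Cntn1 (ENSMUSG00000055022, chromosome 15) was at 0.164 RPKM as deposited and 5.06 RPKM on the exon scale, from an estimated 8958 reads over a span of 291 kb. The deposited level of Cntn2 was 157-fold that of Cntn1 (95% counting interval 154 to 161). Per kilobase of exon the ratio was 18.5-fold (18.2 to 18.9). Both scales put Cntn2 well above Cntn1, and the deposited gap is wider because Cntn1 has the far longer span.

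L1cam and Chl1 led the L1 family. L1cam, the founding member, is known for axon growth and bundling, and its loss in people brings hydrocephalus and loss of axon tracts. L1cam (ENSMUSG00000031391, chromosome X) stood at 9.15 RPKM as deposited and at 52.7 RPKM per kilobase of exon. Its start differs between annotations: the gene spans 42.3 kb in GENCODE and 27.1 kb in RefSeq, and with the shorter span as the authors' length the exon-scale level would be 33.7 RPKM.

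Chl1, the close homolog of L1, is known as a partner of neuropilin in the response to semaphorins and in the migration of cortical neurons. Chl1 (ENSMUSG00000030077, chromosome 6) was at 2.33 RPKM as deposited and 45.3 RPKM on the exon scale, with an estimated 104628 reads, more than the 72690 of L1cam. As deposited, L1cam exceeded Chl1 by 3.93-fold (95% counting interval 3.90 to 3.97). Per kilobase of exon the ratio fell to 0.22 on the log2 scale (1.15-fold to 1.17-fold), and it turned to a log2 ratio of -0.32 with the RefSeq spans. Which of these genes was higher thus depends on the length used.

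Nfasc and Nrcam followed, both known for gathering at the axon initial segment and the node, where neurofascin recruits NrCAM and sodium channels. Nfasc (ENSMUSG00000026442, chromosome 1) stood at 1.79 RPKM as deposited and at 22.4 RPKM per kilobase of exon. Nrcam (ENSMUSG00000020598, chromosome 12) stood at 0.719 and 14.7 RPKM on the same scales. L1cam was above both, by 5.12-fold over Nfasc and 12.7-fold over Nrcam as deposited and by 2.35-fold and 3.59-fold per kilobase of exon. Per kilobase of the longest coding sequence these ratios were 1.31-fold and 1.97-fold, and with RefSeq spans on the exon scale they were 0.59 and 1.18 in log2. Chl1 exceeded Nrcam by 3.23-fold as deposited and by 3.08-fold on the exon scale, a ratio that hardly moved because the lengths of these 2 genes are alike. The neuronal and glial forms of neurofascin cannot be told apart in a gene-level value. Nfasc and Cntn2 lie on the same strand of chromosome 1 with no protein-coding RefSeq gene between them, and Cntn2 exceeded Nfasc by 4.19-fold per kilobase of exon.

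Ncam1 was abundant and Ncam2 was not. Ncam1, the classic neural cell adhesion molecule and main carrier of polysialic acid, stood at 1.34 RPKM as deposited and at 46.1 RPKM per kilobase of exon (ENSMUSG00000039542, chromosome 9). It ranked 5522 among protein-coding genes by deposited level and 626 by exon-scale level. Ncam2, known from olfactory axons, was at 0.0303 and 1.14 RPKM on the same scales, from an estimated 2423 reads (ENSMUSG00000022762, chromosome 16). The ratio of Ncam1 to Ncam2 was 44.4 as deposited (95% counting interval 42.6 to 46.2) and 40.4 per kilobase of exon (38.8 to 42.1). It was 23.8 per kilobase of the longest coding sequence and 30.9 by estimated reads with no length. The deposited and exon-scale ratios are near each other because span exceeds exon length by like factors, 34.3 in Ncam1 and 37.6 in Ncam2. On the exon scale Ncam1 and Chl1 differed by 1.02-fold, less than the choice of span moves either L1cam or Chl1, so the order of L1cam, Ncam1 and Chl1 is not settled.

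The contactin-associated genes were at the low end, and their order turned with the scale. Cntnap2 encodes Caspr2, known for gathering potassium channels beside the paranode, and is among the longest genes of the genome. Cntnap2 (ENSMUSG00000039419, chromosome 6) was listed at 0.0165 RPKM, the lowest of the 10, yet an estimated 6946 reads lay behind it. Per kilobase of exon it stood at 3.61 RPKM. Cntnap1 encodes Caspr, the axonal protein of the paranodal junction that forms with myelin. Cntnap1 (ENSMUSG00000017167, chromosome 11) was listed at 0.0726 RPKM and stood at 0.250 RPKM per kilobase of exon (95% counting interval 0.221 to 0.281), from an estimated 275 reads. Its span also differs between annotations, 20.2 kb in GENCODE and 16.1 kb in RefSeq. With the shorter span as the authors' length the exon-scale level would be 0.199 RPKM, outside that interval. As deposited Cntnap1 exceeded Cntnap2, by 2.14 on the log2 scale. On the exon scale Cntnap2 exceeded Cntnap1 by 14.5-fold (12.8 to 16.3). With RefSeq spans the log2 ratio of Cntnap1 to Cntnap2 on that scale was -4.18, against -3.85 with GENCODE spans.

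Cntnap1 shares its place with a gene on the opposite strand, and the sources used here do not say whether the counting used strand. The 2 overlapping genes on that strand, chiefly Plekhh3, had an estimated 4.35 RPM (reads scaled to the library's depth in M reads) against 1.47 RPM for Cntnap1, so the value of Cntnap1 is uncertain. For L1cam the overlapping gene on the same strand, Arhgap4, had 3.62 RPM, which is 0.936% of the reads of L1cam. Measured genes that overlap the other 8 members held at most 0.0787% of the member's reads on either strand.

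**Figure D2:**
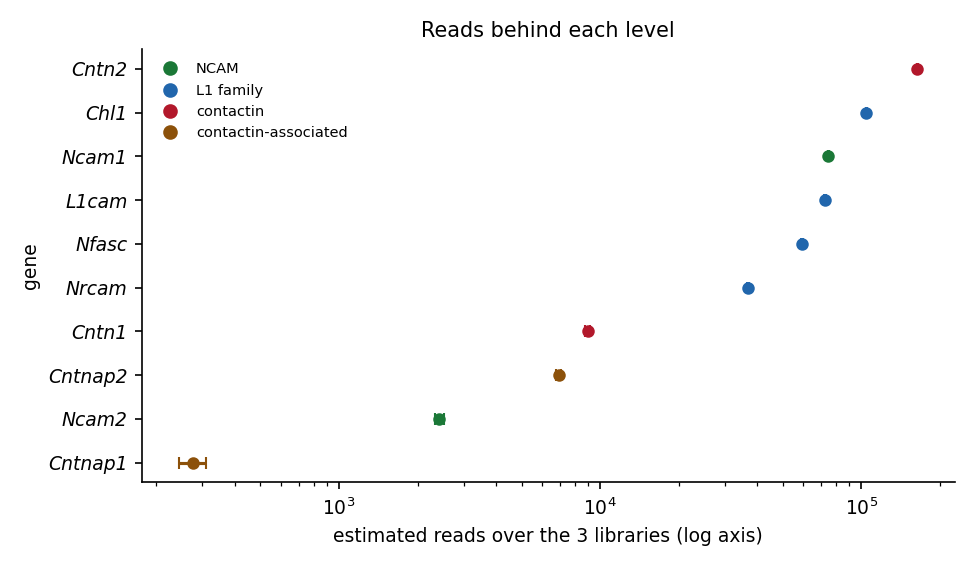
Estimated reads over the 3 libraries for each member, on a log axis, with 95% counting intervals as bars and colours for the families. Reads ran from 275 for Cntnap1 to 163866 for Cntn2, and the interval is wider than the point only for Cntnap1 and, barely, Ncam2.

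Ordered per kilobase of exon, the members ran from Cntn2 through L1cam, Ncam1, Chl1, Nfasc, Nrcam, Cntn1, Cntnap2 and Ncam2 to Cntnap1, with a 376-fold range. As deposited the range was 1565-fold, from Cntn2 to Cntnap2. Neighbours in the exon order were mostly well apart in counting error, as with Nfasc over Nrcam at 0.61 on the log2 scale and Cntn1 over Cntnap2 at 1.40-fold (1.36 to 1.45). Counting error leaves out the spread between embryos, which 1 mean cannot give. Per kilobase of the longest coding sequence, Cntn2 (280 RPKM), Chl1 (154 RPKM), Ncam1 (122 RPKM) and L1cam (103 RPKM) came first, and the 6 lower genes kept their order.

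**Figure D3:**
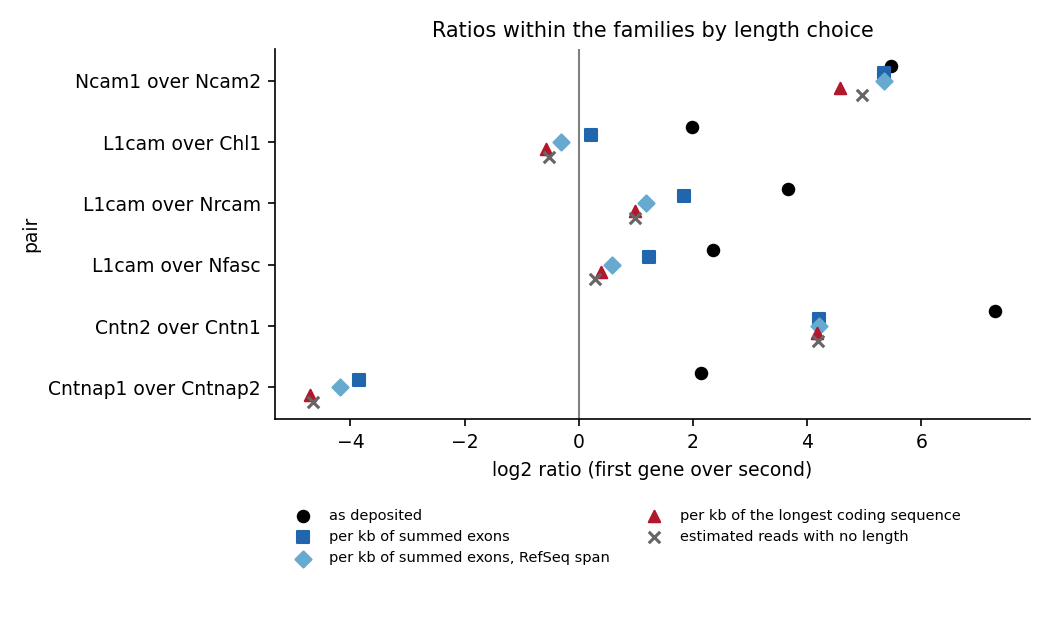
Log2 ratio of the first gene over the second for 6 pairs within the families, by the length used, with the vertical line at a ratio of 1. The ratio of Ncam1 to Ncam2 stayed between 4.57 and 5.47 on the length scales plotted, Cntn2 over Cntn1 dropped from 7.30 to near 4.2, and Cntnap1 over Cntnap2 changed sign, from 2.14 to between -3.85 and -4.71.

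Promoter windows differed widely in CpG content among the members. RefSeq start sites (GRCm38.p6) were listed for 8 of the 10 genes, not for Ncam1 and Cntnap1, with 13 windows of 250 bases before the start. Of these 4 windows, in 4 genes, had over 50% G and C and an observed-to-expected CpG ratio above 0.6, beside 30.8% of all 32851 windows. The TATA letters TATAAA, on either strand, were in 1 of the 13 windows and in 12.4% of all windows. The windows of the highest contactin and of the lower NCAM gene are shown as examples of unlike CpG content, chosen after their values were seen. They are written 5′ to 3′ on the gene's strand with each CpG in capitals, Cntn2 at chr1:132542941-132543190 on the minus strand and Ncam2 at chr16:81200447-81200696 on the plus strand:
Cntn2: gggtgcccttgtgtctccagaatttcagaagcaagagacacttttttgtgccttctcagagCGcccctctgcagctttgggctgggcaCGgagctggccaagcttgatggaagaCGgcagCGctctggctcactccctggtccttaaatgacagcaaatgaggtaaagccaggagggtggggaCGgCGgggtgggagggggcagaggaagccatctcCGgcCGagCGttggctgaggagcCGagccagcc
Ncam2: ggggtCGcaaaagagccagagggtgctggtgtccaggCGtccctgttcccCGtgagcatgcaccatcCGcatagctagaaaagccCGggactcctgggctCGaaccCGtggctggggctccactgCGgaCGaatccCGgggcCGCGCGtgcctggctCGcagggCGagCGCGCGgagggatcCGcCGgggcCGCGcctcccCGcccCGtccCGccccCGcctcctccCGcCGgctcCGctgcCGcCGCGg
The Cntn2 window held 10 CpG and the Ncam2 window 32, against a median of 6 over all windows. The abundant L1cam had windows with 20 and 12 CpG, and the low Cntn1 windows with 7, 3 and 3, so the 2 windows shown stand for no trend between CpG and level. These are letters in a window and say nothing of which start site the cortex used.

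The other contactin and contactin-associated genes all stood below the members' median on both scales. None of the 9 reached 1 RPKM as deposited, beside 31.6% of protein-coding genes. Per kilobase of exon 6 did so, beside 54.1%. Their medians were 0.0125 RPKM as deposited and 1.21 RPKM on the exon scale. Over protein-coding genes the medians were 0.214 and 1.57 RPKM, so on the exon scale these paralogs were near genes in general. On the exon scale Cntnap4 stood at 4.01 RPKM, close to the 3.61 RPKM of Cntnap2, followed by Cntnap5c at 2.06, Cntnap3 at 1.37, Cntnap5b at 1.23 and Cntnap5a at 0.360 RPKM. Cntn5 stood at 1.21, Cntn3 at 1.15, Cntn6 at 0.711 and Cntn4 at 0.201 RPKM per kilobase of exon, all below Cntn1. Reads of closely similar genes such as the Cntnap5 copies are uncertain where they could not be assigned to 1 of them. Of 23 other neuronal adhesion genes with immunoglobulin domains, 5 reached 1 RPKM as deposited and 21 on the exon scale, where their median was 7.71 RPKM against 18.5 RPKM for the members. Cadm4, a synaptic and axon-glia adhesion molecule, was the highest by deposited level at 10.5 RPKM and stood at 110 RPKM per kilobase of exon, with Cadm3 next at 5.81 and 27.6 RPKM, and Sdk1 was the lowest by deposited level at 0.0149 RPKM, with 1.31 RPKM per kilobase of exon.

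Genes for the sugar chains of NCAM were present. St8sia2, the polysialyltransferase known for the embryonic brain, stood at 3.41 RPKM as deposited and 47.3 RPKM per kilobase of exon, beside 46.1 RPKM for Ncam1. St8sia4, the polysialyltransferase that persists in the adult, stood at 0.780 RPKM as deposited, with an estimated 11696 reads against 47764 for St8sia2. B3gat1, which helps make the HNK-1 sugar found on several of these proteins, was the highest of the 6 genes at 13.6 and 80.5 RPKM, and B3gat2 the lowest at 0.213 RPKM as deposited, from an estimated 3497 reads. All 6 reached 1 RPKM per kilobase of exon, and 4 did so as deposited.

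Genes listed as cytoplasmic anchors or binding partners of these proteins were all detected, though not all of them hold the L1 family to the cell skeleton. Of these 12 genes, 5 reached 1 RPKM as deposited and all 12 per kilobase of exon, with an exon-scale median of 14.4 RPKM. Dcx, a microtubule protein of migrating neurons that binds neurofascin, was highest at 22.6 RPKM as deposited and 139 RPKM on the exon scale, followed by the spectrin gene Sptan1 at 19.3 and 95.1 RPKM. Among the ankyrins, Ank2 stood at 15.7, Ank3, the ankyrin of the initial segment, at 9.27 and Ank1, the lowest of the 12, at 2.21 RPKM per kilobase of exon. The node and initial segment channel genes were lower, with 2 of 9 at 1 RPKM as deposited, 8 of 9 on the exon scale and an exon-scale median of 2.98 RPKM. Kcna1 and Kcna2, the potassium channels that Caspr2 gathers, stood at 2.55 and 0.851 RPKM per kilobase of exon.

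Outside the cell, 7 of 11 partner genes reached 1 RPKM as deposited and all 11 on the exon scale, where the median was 20.4 RPKM. The proteoglycan gene Ncan, whose product binds NCAM and L1, was highest by deposited level at 13.9 RPKM and stood at 53.6 RPKM per kilobase of exon. Prnp followed at 5.21 and 63.4 RPKM, and Gfra1, the GDNF receptor that works with NCAM, was lowest at 0.0282 and 1.14 RPKM. Nrp1 and Nrp2, the neuropilins that L1 family proteins join in semaphorin receptors, stood at 20.4 and 8.38 RPKM per kilobase of exon. Of 7 signalling partners all reached 1 RPKM on the exon scale and 4 as deposited, with the growth cone gene Gap43 at 204 and the kinase gene Fyn, which acts below NCAM and contactins, at 47.2 RPKM per kilobase of exon. The 5 genes for proteases that cut these proteins from the surface all reached 1 RPKM on the exon scale, and 3 did as deposited. Among them Adam10, which sheds L1 and NCAM, stood at 20.3 and Adam17 at 3.59 RPKM per kilobase of exon.

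**Figure D4:**
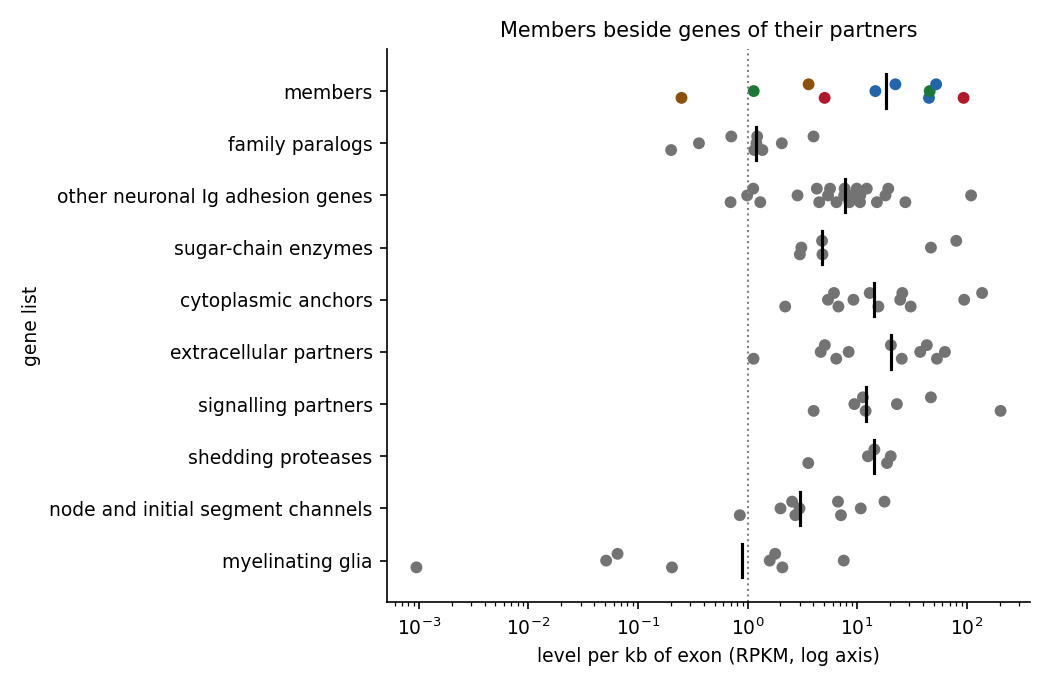
Level per kilobase of exon, on a log axis in RPKM, for the members (coloured by family) and the genes of 9 lists of paralogs and partners (grey), with black ticks at each list's median. The members' median of 18.5 RPKM stood beside 20.4 for extracellular partners and 14.4 for anchors, while paralogs (1.21), channels (2.98) and myelinating glia genes (0.900) were lower.

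Genes of myelinating glia, the cells that meet Caspr, contactin-1 and neurofascin at the paranode, were mostly near the bottom. Of 8, 1 reached 1 RPKM as deposited and 4 on the exon scale, with Mog at 1.02 RPKM as deposited and 7.56 RPKM per kilobase of exon. Mag, the glial partner on the inner face of myelin, had an estimated 50 reads and Mobp 1 read. Genes listed as markers of cortical projection neurons, not all of them particular to these cells, were high. Of these, 7 of 7 reached 1 RPKM as deposited, and their exon-scale median was 55.4 RPKM. Radial glia markers were high as well, with 6 of 6 at 1 RPKM as deposited and an exon-scale median of 21.9 RPKM. Astrocyte markers had 0 of 4 at 1 RPKM as deposited and 1 of 4 on the exon scale, and meningeal markers 0 of 4 on either scale. Markers of other cell types all reached 1 RPKM per kilobase of exon, at lower medians: 5 of 5 for interneurons (median 7.52 RPKM), 4 of 4 for endothelial cells (2.87), 4 of 4 for oligodendrocyte precursors (2.78) and 5 of 5 for microglia (2.61). As deposited 3, 1, 2 and 1 of them did so, in the same order. Ncam1, Chl1 and Nfasc are known in glia as well as neurons, and the part each cell type had in their levels was not tested.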

How the data were processed

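Per the labels' protocols, Trizol and RNeasy columns gave the RNA for TruSeq libraries read on a HiSeq machine. The authors deposited RPKM for the embryonic cortex, averaged over 3 libraries. The build mm9, HTSeq 0.6.0, TopHat2 2.0.9, Bowtie2 2.1.0, DESeq 1.16.0 and Cuffdiff 2.0.2 are named, with no role, per the submitters' processing notes. Symbols, spans, exons and coding lengths came from GENCODE M21, which uses a newer build than mm9, so the only coordinates given are those of the promoter windows, on RefSeq's own build. It matched 32919 gene IDs, with 5072 unmatched IDs at 2.30% of all RPKM. The 3 fullest narrow peaks of RPKM times span among low values of multi-exon genes were taken as 1 read in 1 library and gave the depths, 188 M reads in all, not tied to named libraries. The search was tested on simulated libraries of known depth. Reads are RPKM times span times summed depth, and 95% intervals (exact Poisson for levels, normal on the log scale for ratios) cover counting error only. A gene with no read could still have had 3 reads, or 0.0160 RPM. Python 3.11.15 with pandas 2.3.3 and scipy 1.17.1 was used.

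No test was possible with 1 mean column, so levels are described beside all genes. All members are named, and 1 partner gene is not reported here. From the partner lists the rule takes 3 genes by deposited level (the top 2 and the last), or any gene where a list has up to 9. Ank2, Ank3, Nrp1, Nrp2 and the overlapping genes Plekhh3 and Arhgap4 were added after their values were seen. The members and lists were chosen with earlier results of these data known. Alternatives were other lengths, thresholds, a pseudocount of 0.1 RPKM and a rescaled sum.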

Additional observations from a re-analysis of the deposited data

How the results depend on the processing

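The number of members at the threshold was 5 of 10 as deposited. It was 9 per kilobase of exon, 9 per kilobase of coding sequence, 9 per kilobase of exon with RefSeq spans, 3 at a threshold of 2 RPKM, 6 at 0.5 RPKM and 7 when all values were rescaled to a sum of 1000000. As deposited, 18.8% of all gene IDs and 31.6% of protein-coding genes reached 1 RPKM. Per kilobase of exon the shares were 35.5% of genes with a length and 54.1% of protein-coding genes. For the other settings no share over all genes was computed, so those counts say nothing of the members beside genes in general. The log2 ratios as deposited were 5.47 for Ncam1 over Ncam2, 1.98 for L1cam over Chl1, 3.67 for L1cam over Nrcam, 2.35 for L1cam over Nfasc, 7.30 for Cntn2 over Cntn1 and 2.14 for Cntnap1 over Cntnap2. In the same order they were 5.34, 0.22, 1.84, 1.24, 4.21 and -3.85 per kilobase of exon. With estimated reads and no length they were 4.95, -0.53, 0.98, 0.29, 4.19 and -4.66. Per kilobase of the longest coding sequence they were 4.57, -0.58, 0.98, 0.39, 4.17 and -4.71. Per kilobase of exon with RefSeq spans they were 5.35, -0.32, 1.18, 0.59, 4.21 and -4.18. A pseudocount of 0.1 RPKM gave 3.47, 1.93, 3.50, 2.29, 6.62 and 0.57. L1cam over Chl1 and Cntnap1 over Cntnap2 thus changed sign with the length used, and the other 4 ratios kept their direction in every setting run. The settings with coding length and RefSeq spans were chosen after seeing the data. Coding length from a protein table was not run. Leaving out single libraries was not run, since 1 mean column was used. No paired analysis was possible because the groups that share replicate numbers have no column of their own here. Depth limits Cntnap1, at an estimated 275 reads, more than the other members. Pseudocount and length move the value by their own construction.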
